A study of Homo sapiens with 9 samples.

Results

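The small nucleolar RNA (snoRNA) host genes SNHG5, SNHG8, SNHG15 and SNHG17 were read on arrays of HEK293 cells, a human embryonic kidney line. The members were found by their symbol in the platform annotation, and each had 1 probe set, so 4 of 53617 probe sets, and 4 of 14884 named genes, are described. They were chosen by name with the log2 signals and changes of these arrays in view, and the rule does not say which of those values weighed. All 3 comparisons were therefore counted as used in the choice, and the changes of these 4 genes are given as a description with their errors and without p-values of their own. How many of them passed the threshold applied to every probe set is stated once, and carries no weight as a test.

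The series holds 9 arrays, with 3 in each of 3 groups. The agonist group is labelled as HEK293 cells overexpressing GPR39 and given 1 uM TC-G-1008, the GPR39 group as the same genotype given 0.03 mg/mL cumate, and the mock group as naive cells without cumate. GPR39 is a receptor on the cell surface that senses zinc and signals through G proteins, TC-G-1008 is a synthetic compound that activates it, and cumate is an inducer that turns on genes built to respond to it. All groups were kept in DMEM with 10% serum. The sources used here do not say whether agonist cells also had cumate, how long each exposure lasted, or whether the GPR39 line was a clone. Agonist and a possible lack of cumate cannot be told apart in agonist against GPR39, nor can receptor and cumate in GPR39 against mock. The labels call the replicates biological without saying whether they were separate cultures, so p-values measure only the spread between these arrays.

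A snoRNA host gene makes a spliced transcript whose introns carry snoRNAs, the guide RNAs that direct chemical modification of ribosomal RNA. Splicing frees the intron, and the snoRNA is trimmed from it and bound by its protein partners. What is left, the joined exons, often holds no long reading frame. Many such transcripts are loaded on ribosomes, meet an early stop codon and are broken down by nonsense-mediated decay, a pathway that needs translation, so their level depends on how fast they are made and on how well translation and decay run. Several also begin with a terminal oligopyrimidine (TOP) tract, a run of C and T at the transcript's start that is shared with ribosomal protein mRNAs and makes translation sensitive to growth signals.

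The median log2 signal of an array was 3.13 at the lowest and 3.22 at the highest. Pearson correlations of replicates over all probe sets ran from 0.987 to 0.989 in agonist cells, from 0.989 to 0.991 in GPR39 cells and from 0.984 to 0.990 in mock cells. Mock replicate 1 stood apart, with a mean correlation of 0.988 to the GPR39 arrays and 0.985 to the other mock arrays. The GPR39 probe set averaged 2.58 ± 0.11, 2.58 ± 0.04 and 2.47 ± 0.07 (SD, n = 3 each) in agonist, GPR39 and mock cells, below the filter on dim probe sets in every group, so the labelled overexpression was not seen there, although probes outside the introduced sequence would not show it. Of 10 markers of this epithelial and neural-like line, 5 had an annotated probe set (KRT8, KRT18, VIM, PAX2 and EYA1), and all 5 stood above the 40th percentile on all 9 arrays. Their summed linear signal was 553 to 562 in agonist cells, 663 to 664 in GPR39 cells and 621 to 645 in mock cells, and its part in the results below was not tested. Of the annotated markers of other cell types, 2 of 3 leukocyte markers (CD14 and LAPTM5), 2 of 4 hepatocyte markers (APOA1 and TTR), 1 of 3 endothelial markers (KDR) and 0 of 2 fibroblast markers stood above that percentile on all 9 arrays, while TYROBP, ALB, APOB, PECAM1, VWF, DCN and LUM did not. The highest mean log2 signal was 4.40 among the hepatocyte markers, 3.24 among the leukocyte markers and 2.89 among the endothelial markers. Summed linear signals were 26.4 to 29.4, 23.8 to 29.9 and 22.3 to 23.2 for the leukocyte markers in agonist, GPR39 and mock cells, and 42.6 to 51.5, 40.9 to 48.6 and 39.5 to 48.2 for the hepatocyte markers. For the endothelial markers they were 18.2 to 18.9, 17.7 to 20.3 and 17.4 to 18.9, and for the fibroblast markers 6.92 to 7.40, 6.99 to 7.48 and 7.12 to 7.27. The part of these markers in the results was not tested either.

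The annotated starts of the host genes are shown because the TOP tract sits there. RefSeq promoter sequences of GRCh38.p14 were listed for 3 of the 4 genes, SNHG5, SNHG8 and SNHG17, and ZFAS1, a further host gene, is added for comparison. Each line runs 5′ to 3′ on the gene's strand over 40 bases before and 40 bases from the annotated start, with the longest run of C or T found within 10 bases on either side of the start in capitals.
SNHG5 (chr6:85678694-85678773, minus strand): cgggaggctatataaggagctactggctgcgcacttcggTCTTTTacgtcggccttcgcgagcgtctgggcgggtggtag
SNHG8 (chr4:118278722-118278801, plus strand): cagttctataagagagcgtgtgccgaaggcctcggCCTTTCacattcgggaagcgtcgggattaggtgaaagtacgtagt
SNHG17 (chr20:38435289-38435368, minus strand): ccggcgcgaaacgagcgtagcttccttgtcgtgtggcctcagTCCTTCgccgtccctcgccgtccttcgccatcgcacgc
ZFAS1 (chr20:49278602-49278681, plus strand): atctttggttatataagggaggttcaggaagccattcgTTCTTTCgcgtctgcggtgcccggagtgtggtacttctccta
The run was 6 bases long in SNHG5, SNHG8 and SNHG17 and 7 bases long in ZFAS1. In SNHG5 it began 1 base before the annotated start, in SNHG8 5 bases before it and in SNHG17 at base 3 after it. Of 35116 RefSeq promoters, 22.2% hold a run of at least 6 in the same window on the gene's strand, and 38.7% hold one on either strand. Among the 8 other host genes with an annotated probe set, 3 held such a run. The length of 6 was set after these sequences were read, and a match describes letters only.

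In agonist cells all 4 host genes were higher than in GPR39 cells and than in mock cells, by between 1.36-fold and 1.87-fold. Between GPR39 and mock cells the 4 genes differed by at most 1.24-fold. All 9 arrays read each of them above the 40th percentile. In bulk RNA, a change in the share of cells with a transcript and a change in its amount per cell cannot be told apart.

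SNHG5, the host of SNORD50A and SNORD50B, read 8.03, 8.01 and 8.00 on the log2 scale in agonist cells, 7.10, 7.19 and 7.10 in GPR39 cells, and 7.06, 7.16 and 7.18 in mock cells. The 3 agonist arrays lay well above the other 6, which overlapped each other. Agonist against GPR39 gave a log2 change of 0.88 ± 0.06 (SE), or 1.84-fold, and agonist against mock gave 0.88 ± 0.06. GPR39 against mock gave 0.00 ± 0.06, with a 95% interval from -0.15 to 0.15. Of all tested probe sets 1.39% had a larger positive change in agonist against GPR39.

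SNHG8, which carries SNORA24, read 8.12, 8.14 and 8.14 in agonist cells, 7.44, 7.55 and 7.57 in GPR39 cells, and 7.39, 7.38 and 7.29 in mock cells. Its groups formed 3 steps without overlap, though the lower 2 lay close together. The log2 change was 0.61 ± 0.07 (SE) in agonist against GPR39, 0.78 ± 0.07 in agonist against mock and 0.17 ± 0.07 in GPR39 against mock.

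SNHG15, which carries SNORA9 and is known as a short-lived, stress-responsive transcript, read 6.55, 6.83 and 6.78 in agonist cells, 5.92, 6.14 and 6.05 in GPR39 cells, and 5.88, 5.96 and 5.62 in mock cells. The agonist arrays were again apart, and GPR39 and mock arrays overlapped. Its log2 change was 0.69 ± 0.12 (SE) in agonist against GPR39, 0.90 ± 0.12 in agonist against mock and 0.22 ± 0.12 in GPR39 against mock. The last of these was 0.12 without mock replicate 3, the lowest array.

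SNHG17, the host of SNORA71A, SNORA71B, SNORA71C and SNORA71D, read 6.82, 6.64 and 6.82 in agonist cells, 6.34, 6.40 and 6.23 in GPR39 cells, and 6.28, 5.84 and 5.94 in mock cells. Mock replicate 1 read within the range of the GPR39 arrays, and the other mock arrays lay below it. The log2 change was 0.44 ± 0.12 (SE) in agonist against GPR39, 0.74 ± 0.12 in agonist against mock and 0.30 ± 0.12 in GPR39 against mock. Without mock replicate 1 the last 2 values were 0.87 ± 0.09 and 0.44 ± 0.09, while for SNHG5, SNHG8 and SNHG15 leaving it out gave -0.04, 0.18 and 0.25 in GPR39 against mock.

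**Figure D1:**
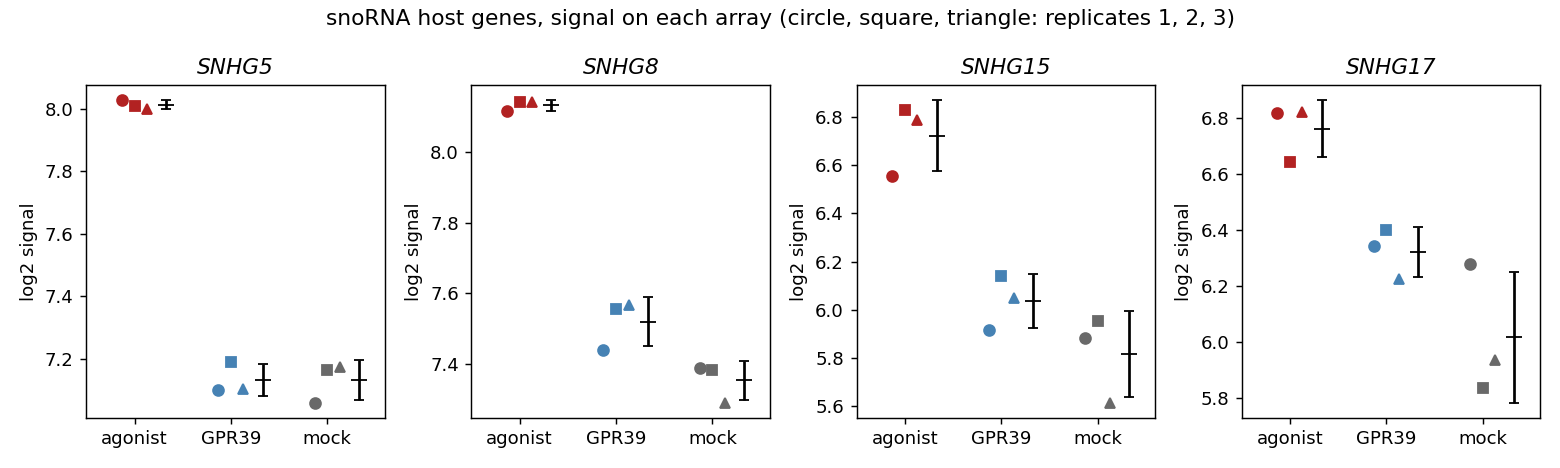
Log2 signal of SNHG5, SNHG8, SNHG15 and SNHG17 on each array (vertical axis, a separate scale per gene) in agonist, GPR39 and mock cells, with the mean and SD (n = 3) beside the points. The 3 agonist arrays sit above the other 6 for each gene, and in SNHG17 mock replicate 1 at 6.28 sits among the GPR39 arrays. Of all tested probe sets, 13.5% had agonist arrays wholly above the GPR39 arrays, and the share above both other groups was not counted.

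The 4 genes differed in how their change divided over the comparisons. SNHG5 read 8.01 ± 0.01 in agonist cells, with means of 7.13 in GPR39 and 7.13 in mock cells, so its difference lay between agonist cells and the rest. SNHG17 was the gene of the 4 with the smallest change in agonist against GPR39 and the largest in GPR39 against mock. Ordered by the change in agonist against GPR39, SNHG5 came before SNHG15, SNHG8 and SNHG17. The 95% intervals of each pair of neighbours in that order overlapped. Those of the first and the last, SNHG5 (0.73 to 1.03) and SNHG17 (0.16 to 0.72), did not. The comparisons share arrays, so these values are not independent of each other. In agonist against GPR39 the median of the 4 log2 changes was 0.65, against 0.01 over all tested probe sets. In agonist against mock it was 0.83, against 0.02, and in GPR39 against mock 0.19, against 0.01. Over all tested named genes, with 1 probe set each, the medians were -0.03, -0.01 and 0.02 in the same order.

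At an adjusted p of 0.05 in the limma fit over 33376 probe sets, 3 of the 4 were past the threshold in agonist against GPR39, all higher, where 3.12% of all tested probe sets were called higher. SNHG17 was not, and its 3 agonist arrays did not overlap the GPR39 arrays, as was so for 13.5% of all tested probe sets in that direction. In agonist against mock 4 of 4 were called higher, beside 6.11% of all. In GPR39 against mock 0 of 4 were called by limma, beside 1.17% in either direction. At an unadjusted p under 0.05 there were 2, and the share of all tested probe sets at that level was not counted. These counts describe the genes as chosen and nothing is read from them. SNHG8, whose GPR39 arrays all lay above its mock arrays, shares that with 11.4% of tested probe sets.

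Spread within groups was small for a pair of the genes. The pooled within-group SD was 0.05 for SNHG5 and 0.05 for SNHG8, smaller than in all but 3.52% and 4.79% of tested probe sets. It was 0.15 for SNHG15 and 0.16 for SNHG17, close to the median of 0.15 over all tested probe sets. The errors of the changes above follow that difference.

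RefSeq places 8 snoRNA genes inside the 4 host genes, and 0 of the 8 have an annotated probe set here, so the snoRNAs themselves were not analysed. On each side of a host gene, the nearest protein-coding gene with an annotated probe set was read as well. Genes without such a probe set may lie in between, and the distances are not given here. TBX18, a T-box transcription factor gene and the annotated neighbour of SNHG5 on the side of lower coordinates, averaged 8.15 ± 0.09 in agonist cells and 8.60 ± 0.05 in GPR39 cells (SD, n = 3 each), and fell by 0.46 on the log2 scale (limma adjusted p = 0.00769), and by 0.54 against mock. On the other side of SNHG5, ZNF292 gave 0.38 ± 0.12 (limma adjusted p = 0.0867). METTL14, a subunit of the RNA methyltransferase that writes N6-methyladenosine and the annotated neighbour of SNHG8, gave -0.14 ± 0.08 (limma adjusted p = 0.342). MYO1G and CCM2 beside SNHG15 gave 0.22 ± 0.19 and -0.20 ± 0.10, and ARHGAP40 beside SNHG17 gave -0.19 ± 0.10, none past the threshold in any comparison. NDST3 and LBP, the remaining neighbours, were too dim to be tested.

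Other snoRNA host genes, which the choice of the 4 had not named, were examined next. Their list was also chosen with earlier results of these data known, so its counts and medians are a description. Of 32 listed, 8 had an annotated probe set and 7 were bright enough to test. In agonist against GPR39, 3 of 7 rose and 0 fell, beside 9.06% of all probe sets called in either direction, and without any 1 of the 3 GPR39 arrays the count was 1, ZFAS1. In agonist against mock, 5 of 7 rose and 0 fell, beside 15.0% of all called. Centring on the 75th percentile moved the share of higher calls among all calls in that comparison to 56.2%, from 40.6% as deposited. In GPR39 against mock, limma called 0 of 7, beside 1.17% of all called in either direction. At an unadjusted p under 0.05 there were 2, a level at which the share of all tested probe sets was not counted. The median log2 changes over the 7 were 0.31, 0.48 and 0.10 in the 3 comparisons, against 0.01, 0.02 and 0.01 over all tested probe sets. Over all tested named genes, with 1 probe set each, the medians were -0.03, -0.01 and 0.02.

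ZFAS1, the host of the SNORD12 group, read 8.17, 8.13 and 8.10 in agonist cells, 7.31, 7.45 and 7.42 in GPR39 cells, and 7.31, 7.56 and 7.66 in mock cells. It rose by 0.74 ± 0.10 (SE) in agonist against GPR39 (limma adjusted p = 0.0039) and by 0.62 ± 0.10 in agonist against mock (limma adjusted p = 0.00409). As with SNHG5, its GPR39 and mock arrays overlapped, at -0.12 ± 0.10.

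GAS5, a host of 11 snoRNAs by RefSeq and a classic substrate of nonsense-mediated decay, read 8.10, 8.24 and 8.11 in agonist cells, 7.66, 7.67 and 7.76 in GPR39 cells, and 7.45, 7.68 and 7.74 in mock cells. The agonist arrays lay above the rest. The gene rose by 0.46 ± 0.09 (SE) in agonist against GPR39 (limma adjusted p = 0.0191) and by 0.53 ± 0.09 in agonist against mock (limma adjusted p = 0.0064). The first of these calls was lost without any 1 of the 3 GPR39 arrays, with adjusted p from 0.0519 to 0.0720, and without agonist replicate 2, with adjusted p = 0.0583.

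DANCR, which carries SNORA26, read 4.63, 4.62 and 4.80 in agonist cells, 4.34, 4.39 and 4.39 in GPR39 cells, and 4.21, 4.19 and 4.17 in mock cells. Its groups formed steps without overlap. It rose by 0.49 ± 0.07 (SE) in agonist against mock (limma adjusted p = 0.0027), and by 0.31 ± 0.07 in agonist against GPR39 (limma adjusted p = 0.0326), a call lost under 10 of 15 alternatives, among them quantile normalization and the fit with the replicate block (limma adjusted p = 0.0602 and 0.0823).

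EPB41L4A-AS1, which carries SNORA13, read 7.03, 7.10 and 7.11 in agonist cells, 6.81, 6.97 and 6.82 in GPR39 cells, and 6.55, 6.64 and 6.59 in mock cells. It rose by 0.48 ± 0.07 (SE) in agonist against mock (limma adjusted p = 0.00286) and gave 0.21 ± 0.07 in agonist against GPR39 and 0.27 ± 0.07 in GPR39 against mock, neither past the threshold. SNHG16, host of the SNORD1 group, averaged 9.43 ± 0.05 in agonist cells, 9.22 ± 0.01 in GPR39 cells and 9.12 ± 0.12 in mock cells (SD, n = 3 each). It rose by 0.32 ± 0.08 in agonist against mock (limma adjusted p = 0.0279), a call lost under 7 of 15 alternatives. SNHG10 averaged 5.71 ± 0.23 in agonist cells, 5.36 ± 0.04 in GPR39 cells and 5.32 ± 0.06 in mock cells (SD, n = 3 each), and no comparison passed. Its change in agonist against mock, 0.39 ± 0.11 (limma adjusted p = 0.0523), passed under 5 of 15 alternatives, among them quantile normalization and leaving out agonist replicate 2.

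SNHG20 went the other way in value. It read 6.01, 5.45 and 6.28 in agonist cells, 6.52, 6.41 and 6.44 in GPR39 cells, and 6.32, 6.32 and 6.34 in mock cells, with agonist replicate 2 far below the others. Agonist against GPR39 gave -0.54 ± 0.18 (SE, limma adjusted p = 0.115), -0.31 without agonist replicate 2 (limma adjusted p = 0.113) and -0.73 without agonist replicate 3 (limma adjusted p = 0.0380). SCARNA16, a Cajal body RNA that RefSeq places inside SNHG20 and the only RNA carried by these hosts with an annotated probe set, averaged 6.28 ± 0.08 in agonist cells, 6.25 ± 0.06 in GPR39 cells and 6.19 ± 0.12 in mock cells (SD, n = 3 each). Its log2 change in agonist against GPR39 was 0.04 ± 0.08, with a 95% interval from -0.15 to 0.23. SNHG18 was too dim to test. SNHG33, which was not on the list and is named after its values were seen, gave -0.03 ± 0.09 in agonist against GPR39 (limma adjusted p = 0.886).

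**Figure D2:**
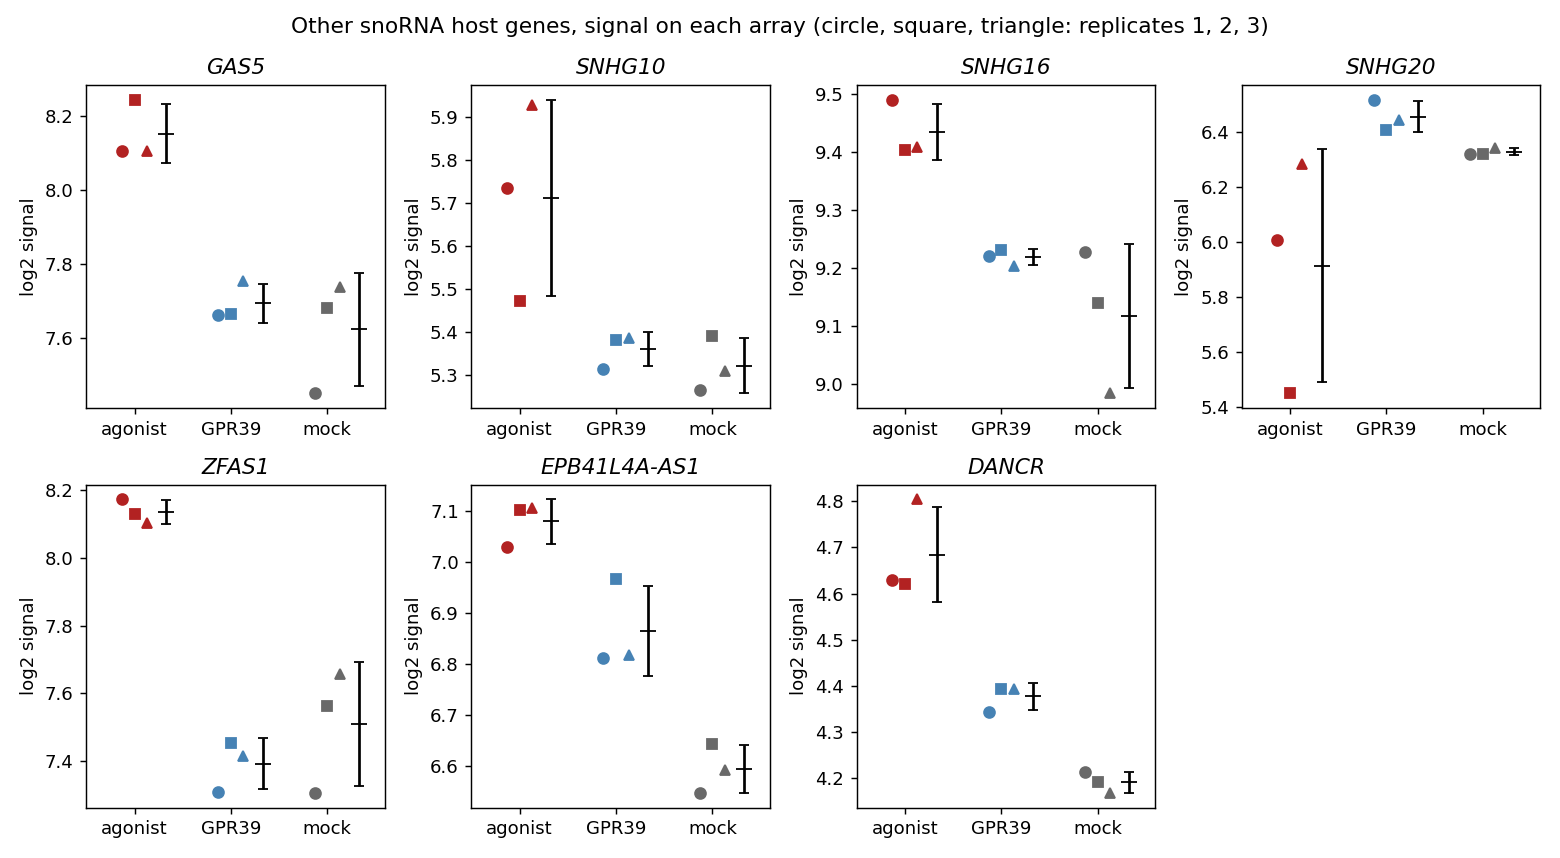
Log2 signal of the 7 other host genes that could be tested, on each array (vertical axis, a separate scale per gene) in agonist, GPR39 and mock cells, with the mean and SD (n = 3). The agonist arrays lie above the other 6 in every panel except SNHG20, where they lie below them and spread from 5.45 to 6.28. Of all tested probe sets, 13.5% had agonist arrays wholly above the GPR39 arrays, and the share above both other groups was not counted.

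**Figure D3:**
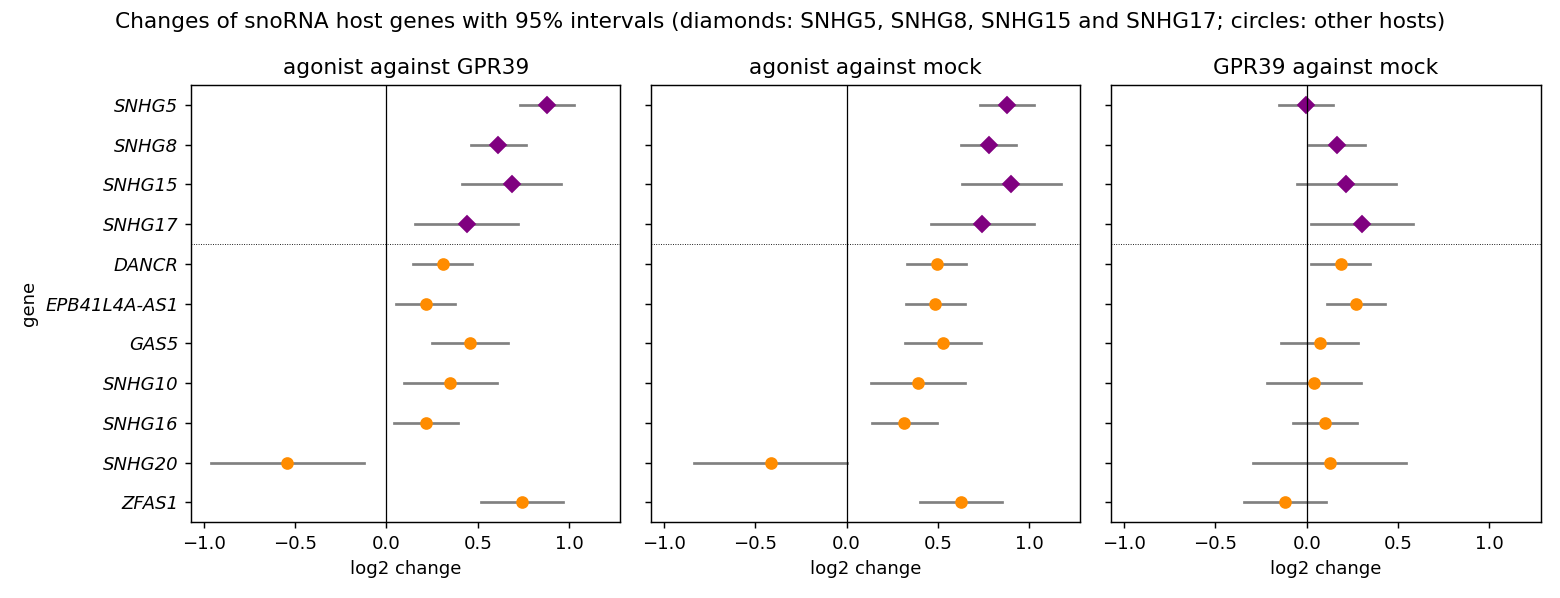
Log2 change with its 95% interval (horizontal axis) for SNHG5, SNHG8, SNHG15 and SNHG17 (diamonds) and the 7 other host genes (circles) in the 3 comparisons. In agonist against GPR39 every point but SNHG20, at -0.54, lies above 0, and in GPR39 against mock the points lie between -0.12 and 0.30.

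Genes of the pathways that host transcripts pass through were then counted from lists. These lists, too, were chosen with earlier results of these data known, so their counts are a description and carry no weight as a test. The nonsense-mediated decay targets are protein-coding genes with at least some transcripts that the pathway is known to degrade. With 1 probe set per gene, those transcripts were not read apart from the others. In agonist against GPR39, 4 of 13 tested targets were higher and 0 lower, beside 3.12% of all tested probe sets called higher. That share takes in probe sets without a symbol, and the share among named genes was not counted. The median log2 change of the 13 targets was 0.30. The uridine phosphorylase gene UPP1, which averaged 4.71 ± 0.18 in agonist cells and 3.99 ± 0.07 in GPR39 cells (SD, n = 3 each), rose by 0.72 ± 0.11 (SE). The asparagine synthetase gene ASNS rose by 0.78, the stress transcription factor gene ATF4 by 0.57 and the activity-regulated gene ARC by 2.91, and the largest limma adjusted p of these 4 was 0.00793. In agonist against mock 7 of 13 rose and 0 fell, beside 6.11% of all called higher, with ARC at 2.87, ATF3 at 1.91, ASNS at 1.02 and ATF4 at 0.71. Among the 7, the MAP3K14 call was lost under 5 of 15 alternatives and the SRSF6 call under 6. In GPR39 against mock ATF3 alone rose, by 1.39 ± 0.15 (limma adjusted p = 0.00533), and MAP3K14 gave 0.27 ± 0.08 (limma adjusted p = 0.178). ASNS, ATF4 and ARC are also known to be raised by transcription. For these genes, and for ATF3, UPP1 and the other targets alike, an array level does not separate synthesis from decay.

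The factors of nonsense-mediated decay had calls in both directions, as did the tested probe sets as a whole, at 1040 higher and 1985 lower in agonist against GPR39. In that comparison 2 of 13 tested factors rose and 1 fell, beside 9.06% of all called. EIF4A3, the helicase core of the exon junction complex, rose by 0.45 ± 0.08 (SE, limma adjusted p = 0.0138), to 9.08 ± 0.06 in agonist cells, against 8.63 ± 0.06 in GPR39 cells (SD, n = 3 each). DCP1A, a decapping activator, rose by 0.48 ± 0.09 (limma adjusted p = 0.0180). The EIF4A3 call was lost under 2 and the DCP1A call under 4 of 15 alternatives, each of which left out 1 agonist or GPR39 array. MAGOHB, another exon junction subunit, fell by 0.40 on the log2 scale (limma adjusted p = 0.0410), a call lost under 10 of 15 alternatives. The count fell to 0 without GPR39 replicate 1 and was 1 without each of GPR39 replicates 2 and 3 and agonist replicates 2 and 3.

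Of the decay factors, 2 rose and 3 fell in agonist against mock, beside 15.0% of all called. DCP1A rose by 0.68 and EIF4A3 by 0.41, while the decapping enzyme gene DCP2 fell by 0.43 and MAGOHB fell by 0.48, each with a limma adjusted p of at most 0.0122. NBAS, named to complete the count, fell by 0.34 (limma adjusted p = 0.0216), a call lost under 5 of 15 alternatives, among them 75th percentile centring and the replicate block. In GPR39 against mock limma called 0 of 13, beside 1.17% of all called in either direction. At an unadjusted p under 0.05 there were 3, without a counted share of all probe sets at that level. The translation termination factor genes GSPT1 and GSPT2 gave 0.21 ± 0.06 and 0.46 ± 0.14. The median change of the list was -0.06 in agonist against GPR39 and 0.06 in agonist against mock.

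Proteins that bind and assemble snoRNAs had 2 of 14 tested members higher and 0 lower in agonist against GPR39, beside 3.12% of all called higher, with a median of -0.03. NAF1, an assembly factor of box H/ACA particles, rose by 0.59 ± 0.10 (SE, limma adjusted p = 0.00965), to 7.38 ± 0.19 in agonist cells, against 6.79 ± 0.02 in GPR39 cells (SD, n = 3 each). NOLC1, a nucleolar phosphoprotein that associates with the particles, rose by 0.32 ± 0.07 (limma adjusted p = 0.0325), a call lost under 10 of 15 alternatives, among them the fit without any 1 agonist or GPR39 array. Against mock, 4 of 14 rose in agonist cells, beside 6.11% of all called higher, NAF1 by 0.69, NOLC1 by 0.52, the box C/D core protein gene NOP58 by 0.41 and RPAP3 by 0.35, the last a call lost under 3 of 15 alternatives, among them the replicate block. Of the 14, limma called 0 in GPR39 against mock, beside 1.17% of all called in either direction. At an unadjusted p under 0.05 there were 4, without a counted share of all probe sets at that level. NOP58 and RUVBL2 gave 0.34 ± 0.07 and 0.22 ± 0.08.

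Protein-coding TOP mRNAs, mostly of translation factors, had at most 1 call per comparison. The list was drawn up to leave out ribosomal protein genes, but 1 of its 8 tested members, FAU, encodes a ribosomal protein as part of a fusion. In agonist against GPR39 limma called 0 of 8 tested, with 0 at an unadjusted p under 0.05 and a median of 0.10. All 8 changes were above 0, and HNRNPA1 and FAU gave 0.31 ± 0.14 and 0.21 ± 0.09 (SE). For 4 of the 8 the agonist arrays lay wholly above the GPR39 arrays, as in 13.5% of all tested probe sets. Against mock cells EEF2, the translation elongation factor that moves the ribosome along, rose in agonist cells by 0.27 ± 0.07 (limma adjusted p = 0.0342), a call lost under 10 of 15 alternatives, beside 6.11% of all called higher, and FAU gave 0.22 ± 0.09. For GPR39 against mock limma called 0 of 8, beside 1.17% of all called in either direction. At an unadjusted p under 0.05 there was 1, without a counted share of all probe sets at that level. EEF2 and HNRNPA1 gave 0.16 ± 0.07 and -0.14 ± 0.14.

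**Figure D4:**
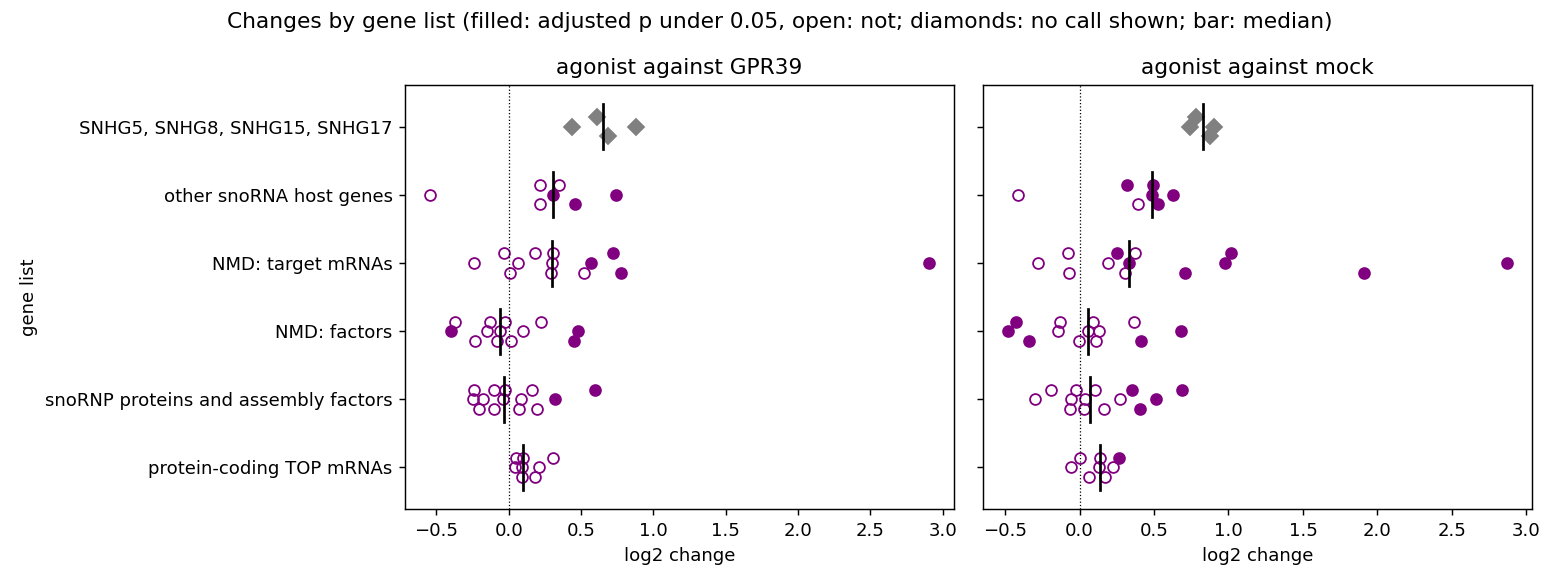
Log2 change of each tested gene (points) by list, for agonist against GPR39 and agonist against mock. Diamonds are SNHG5, SNHG8, SNHG15 and SNHG17, filled circles passed an adjusted p of 0.05, open circles did not, and the bar is the list's median, at 0.65 for the diamonds and 0.31 for the other host genes in agonist against GPR39 and near 0 for the decay factors and snoRNA-binding proteins.

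The genes whose pattern over the 9 arrays was most like each host gene were listed by Pearson's r among 11915 other named, tested genes. For SNHG5 they were FOSB, EGR1 and CEMIP2, with r of 0.996 for each. For SNHG8 they were BAIAP2 at 0.998, NRARP at 0.995 and CTH at 0.995. For SNHG15 they were SIK2 at 0.987, RSPH3 at 0.984 and SARS1 at 0.980, and for SNHG17 they were FADS3 at 0.975, JOSD1 at 0.973 and SHISA2 at 0.972. These values rest on 9 arrays in 3 groups and describe the group pattern more than the spread within groups. The median r over all genes lay between -0.08 and -0.04 for the 4.

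Among the host genes themselves, SNHG8 and SNHG15 had r of 0.976. SNHG8 ranked 8 among all genes by likeness to SNHG15, and SNHG15 ranked 66 by likeness to SNHG8. SNHG5 and ZFAS1 had r of 0.969, and SNHG5 and SNHG17 had 0.822. By likeness to SNHG5, ZFAS1 ranked 44 and SNHG17 ranked 639 among all genes. SNHG17 was most like SNHG16 among the hosts, with r of 0.929 and a rank of 76 among all genes. SNHG20 had negative r with all 4, from -0.74 to -0.47.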

How the data were processed

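The authors deposited log2 signals, a scale read from their range of 0.717 to 13.5. The submitters' processing notes name MAS5 and no other tool. The log step and any normalization between arrays are not stated in the sources used here. Of 53617 probe sets, 16098 carry a gene symbol in the platform annotation, and all 16098 were found again by Entrez identifier in RefSeq (GRCh38.p14). A probe set was tested if it exceeded its array's 40th percentile (2.63 to 2.70) on at least 3 of 9 arrays, which kept 33376. All arrays were fitted together with limma 3.58.1 in R 4.3.3 (lmFit, eBayes, 6 residual and 2.12 prior degrees of freedom), two-sided, with Benjamini-Hochberg adjustment over all tested probe sets at 0.05. The scripts were tested on simulated data.

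The members and lists were chosen with earlier results of these data known. Lists use 1 probe set per gene, the brightest. Shares beside list counts are over all tested probe sets, with or without a symbol. Shares among tested genes with a symbol were not counted. Named genes are all annotated host genes, and per list up to 4 genes with the smallest p among those called, or the 2 with the smallest p where fewer than 2 were called. The neighbours and the 3 most alike genes per member follow fixed rules. Arrays give no read depth, and their number limits the precision. Alternatives were other filters, 75th percentile centring, quantile normalization, a trended prior, the replicate number as a block, and leaving out each array. Figures were drawn with matplotlib 3.10.9.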

Additional observations from a re-analysis of the deposited data

How the results depend on the processing

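The log2 changes of SNHG5, SNHG8, SNHG15 and SNHG17 moved by less than 1 SD, pooled over the 2 groups compared, under all 15 alternatives, except that 75th percentile centring gave 0.95 for SNHG5 and 0.85 for SNHG8 in agonist against mock. In GPR39 against mock it gave 0.05 and 0.22 for these genes, against 0.00 and 0.17. The numbers of called probe sets moved more. In agonist against GPR39 the count was 1819 with the replicate block and 1509 to 3119 leaving out 1 array, against 3025. In GPR39 against mock it was 637 with the filter at the 60th percentile, 663 with the trended prior, 150 with the replicate block and 108 to 1323 leaving out 1 array, the highest without mock replicate 1, against 391. Deviations of same-numbered arrays from their group means had correlations of -0.10 to 0.06. No shared deviation was seen, but these values cannot tell whether same-numbered samples were handled together. Centring raised the share of higher calls in GPR39 against mock to 74.7%, from 63.9%.

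Among the lists in agonist against GPR39, leaving out 1 array gave 1 to 3 other host genes and 0 to 3 decay factors. For snoRNA-binding proteins it gave 1 to 2, and centring, no filter and the replicate block each gave 1. The TOP list in agonist against mock had 0 with no filter and with the replicate block, and 0 to 1 leaving out 1 array. In GPR39 against mock the trended prior called 1 decay factor and 1 snoRNA-binding protein, and the filter at the 60th percentile 1 snoRNA-binding protein. GAS5 gave -0.0154 in GPR39 against mock without mock replicate 1, against 0.07, and up to 0.1278 leaving out another array. The snoRNAs inside the members could not be counted under any setting, since none has an annotated probe set. The cause of these shifts was not tested, beyond the smaller number of arrays.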
